A study of Mus musculus with 4 samples.

Results

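Solute carriers and membrane pumps are the proteins that move amino acids, sugars, ions, metals, nucleotides and lipids across cell membranes. They were examined in mouse embryonic fibroblasts, primary connective tissue cells grown from embryos, after knockdown of eIF1A. The group comprised every analysed gene whose symbol begins with Slc and a digit, Slco, Abca to Abcg and a digit, Atp1a, Atp1b or Atp2a to Atp2c, apart from Slc16a3. This gave 83 genes of 4878. The rule used names alone and no measured value. The Slc9a3r1, Slc9a3r2 and Slc4a1ap genes match the rule by name but encode adaptor proteins, and Abcf genes encode ABC proteins with no membrane-spanning part. No Atp1a or Atp2 gene was analysed here.

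Carriers of the Slc families let a solute cross a membrane down its gradient, or couple it to a second solute that does. Pumps of the Atp1 and ABC families spend ATP directly. The sodium pump keeps the sodium gradient that many amino acid and phosphate carriers draw on. Most Slc25 carriers connect the mitochondrial matrix with the cytosol. Several plasma membrane amino acid carriers are known targets of ATF4, a transcription factor of the amino acid stress response, and the glucose carrier Slc2a1 is a known target of the hypoxia factor HIF1.

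The knockdown group was 2 libraries of fibroblasts transfected with the siRNA labelled Si-eIF1A (X+18), and the control group was 2 libraries of fibroblasts transfected with a negative control siRNA. All cells were at passages 5 to 8 and received their siRNA with Lipofectamine RNAiMAX. eIF1A is a factor of translation initiation, with which ribosomes scan messenger RNAs for start codons. Polyadenylated RNA was measured by bulk MARS-seq, which counts the 3′ ends of transcripts. Nothing in the labels ties replicate libraries to separate cultures, and p-values then measure only how far these samples differ, a spread that may be technical. The recovered reads numbered 2152331 and 2352111 in the knockdown libraries and 2182825 and 2595625 in the control libraries. These totals cover the analysed genes alone. The genes Eif1a and Eif1ax were not analysed here, so the knockdown was not checked in these data. Of 12 fibroblast markers 3 were among the genes analysed (Vim, S100a4 and Fn1), and none of the listed markers of epithelial, white blood, endothelial and smooth muscle cells was. The summed level of the 3 fibroblast markers was 9879 and 12562 normalised counts in knockdown libraries and 23010.0 and 17548 in control libraries, with 2 of the 3 called lower. The part of cell identity in the results was not tested. In these bulk samples fewer cells of a type and less RNA per cell cannot be told apart.

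Carriers and pumps changed in both directions after the knockdown, in equal numbers each way. Of the 83 members, 76 had a mean of at least 5 normalised counts and were tested. Of these, 19 were higher and 19 were lower in knockdown cells (limma on log2(normalised count + 1), Benjamini-Hochberg adjusted p under 0.05 over all genes tested), and 38 did not pass. Among all 4605 genes tested, 15.9% were higher, 21.6% lower and 37.5% either. The knockdown and control libraries did not overlap in 67 of the 76 (88.2%, against 67.8% of all genes), with the knockdown higher in 40 and lower in 27. A change of at least 2-fold was seen in 27 of the 38 called, against 1029 of the 1729 called among all genes tested. The median log2 fold change was 0.29, against -0.01 for all genes, and single members ran from -3.80 to 3.54. Scaled to equal library totals, the median of all genes moved to 0.34. In that setting 32 members were higher and 13 lower (42.1% and 17.1%), against 28.2% and 13.1% of all genes. With 1 library left out, the median of the members ran from 0.24 to 0.35 and that of all genes from -0.05 to 0.01. Such a fit has 1 library in a group, so its number of calls is not compared.

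**Figure D1:**
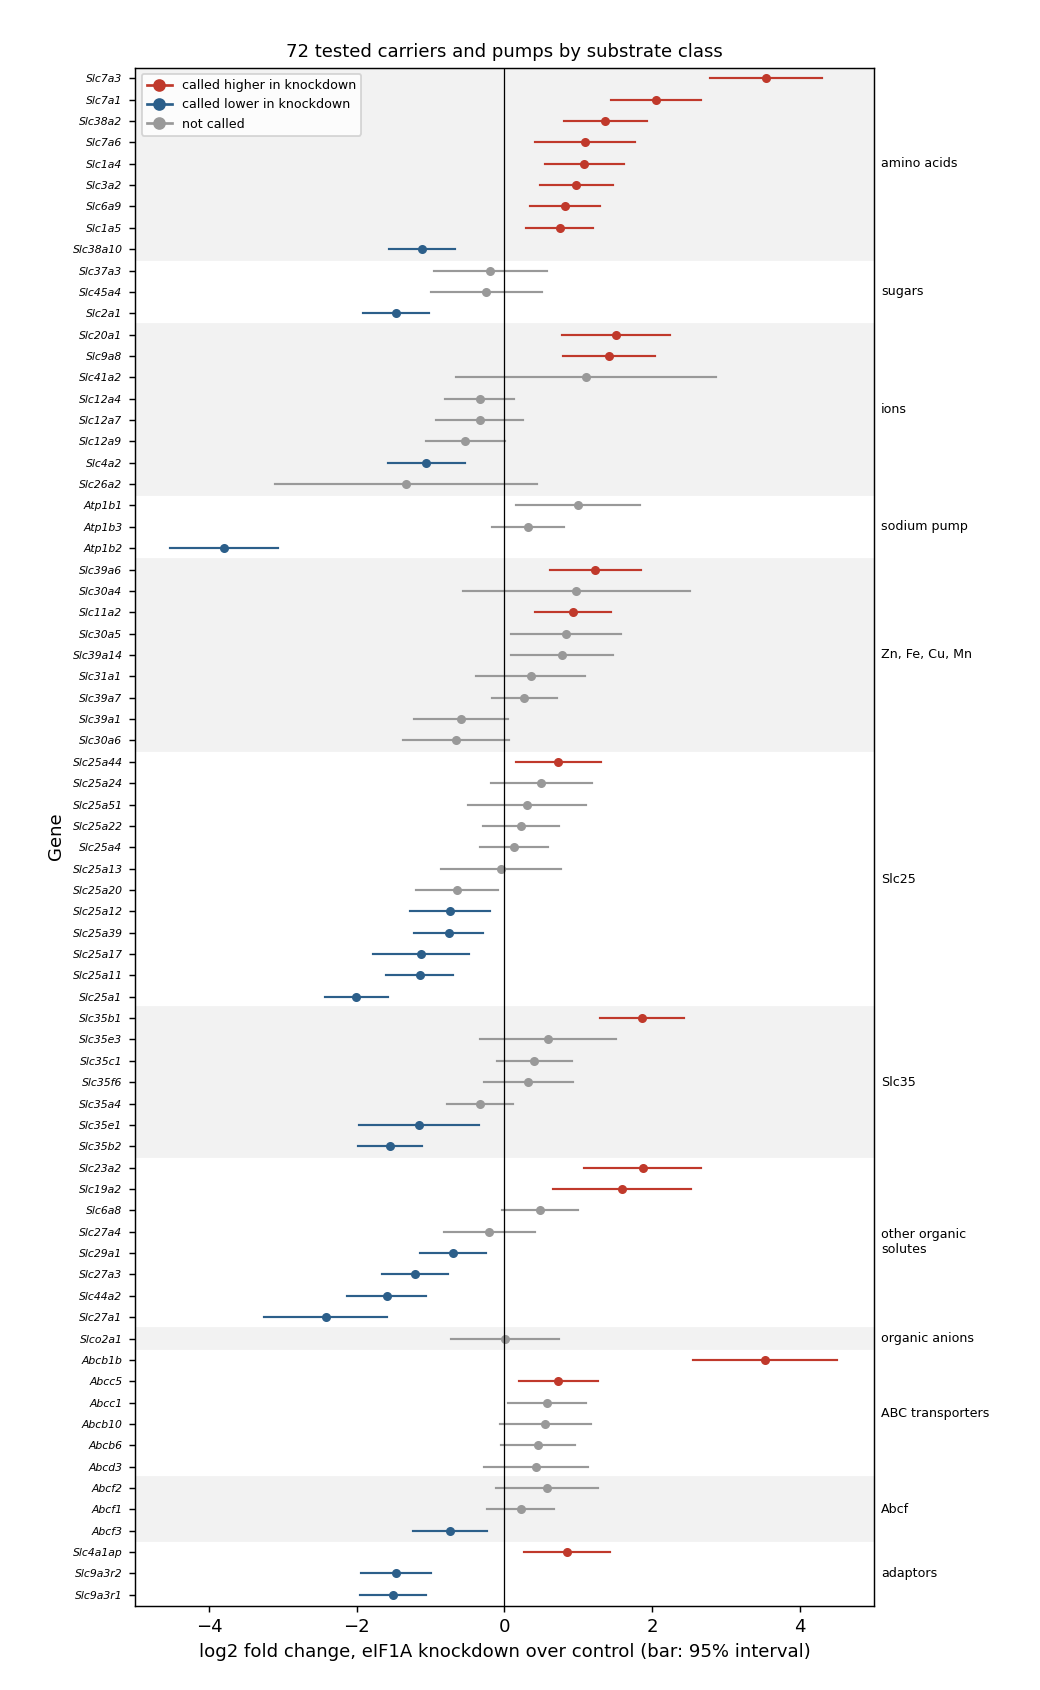
Log2 fold change of 72 tested carriers and pumps (x axis, eIF1A knockdown over control), a row for each gene, grouped by substrate class. Points are limma estimates and bars their 95% intervals, coloured by call. Of the 9 amino acid carriers 8 lie to the right of 0, the largest change on the left is that of Atp1b2, and the calls of most other classes go both ways.

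Amino acid carriers mostly rose in knockdown cells. Of 9 members, all tested, 8 rose, 1 fell (Slc38a10) and 0 missed the threshold, where 15.9% of all genes tested rose and 21.6% fell. The median log2 fold change of the class was 1.08 (1.43 at equal library totals). As a summed level the class had 5062 and 7018 normalised counts in knockdown libraries and 3645 and 3168 in control libraries. Most of each sum came from Slc3a2, with 2799 and 4343 in knockdown libraries and 1861 and 1689 in control libraries. In limma without its mean-variance trend 5 members were higher, where 501 of all 4605 genes tested were, against 733 with the trend. The class median was 1.085 and 1.038 without knockdown replicates 1 and 2.

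The cationic amino acid carriers, which take up arginine and lysine, showed the biggest changes of the class. Slc7a3 (mm10 chromosome X, 101079210 to 101086020, minus strand) had 148 and 151 normalised counts in knockdown cells, against 15.7 and 8.93 in control cells. Its log2 fold change was 3.54 ± 0.36 (SE) (limma, adjusted p = 4.75e-07), which ranked 1 among the rises of all 4605 genes tested. Its paralogue Slc7a1 had 271 and 293 in knockdown cells and 93.5 and 47.9 in control cells, a 4.16-fold rise (adjusted p = 2.28e-05). Control replicate 2 had the lower value of both genes, and no knockdown library came near a control library. Both calls were kept in every alternative run.

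The heteromeric exchangers of the plasma membrane pair a light chain with the heavy chain encoded by Slc3a2, and both kinds of chain were measured. Slc3a2 had 2799 and 4343 normalised counts in knockdown cells and 1861 and 1689 in control cells (1.97-fold, adjusted p = 0.00316). The knockdown libraries were well apart from each other, and without knockdown replicate 2 the call was lost (1.58-fold, adjusted p = 0.0789). The light chain Slc7a6, which exchanges basic and neutral amino acids, had 88.0 and 87.6 in knockdown cells and 51.2 and 32.5 in control cells (2.12-fold, adjusted p = 0.0124). The call of Slc7a6 was lost without either knockdown replicate (adjusted p = 0.0631 and 0.0635), without control replicate 2 (0.0796) and once the GC trend was removed (0.0693), although the groups did not overlap.

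Sodium-coupled carriers of neutral amino acids rose as well. Slc38a2, which takes up alanine, glutamine and other small neutral amino acids, had 379 and 598 normalised counts in knockdown cells and 235 and 144 in control cells, a log2 fold change of 1.37 ± 0.27 (SE, adjusted p = 5.74e-04). Slc1a4, a carrier of alanine, serine and cysteine, had 182 and 181 in knockdown cells and 88.6 and 82.0 in control cells (2.12-fold, adjusted p = 0.00249). The values of Slc1a4 were close within each group and apart between them, and the calls of Slc38a2 and Slc1a4 were kept in every alternative run. Slc1a5, the glutamine carrier of the same family, rose 1.68-fold to 434 and 418 in knockdown cells, against 258 and 248 in control cells (adjusted p = 0.0105). Slc6a9, a glycine carrier, rose 1.77-fold to 462 and 627 in knockdown cells, against 319 and 289.7 in control cells (adjusted p = 0.00742). Neither of the last pair reached 2-fold. The call of Slc1a5 was lost without knockdown replicates 1 and 2 (adjusted p = 0.0741 and 0.0567), and that of Slc6a9 without knockdown replicate 2 (0.153). Slc38a10, a member of the Slc38 family, went the other way, with 299 and 319.9 in knockdown cells and 723 and 627 in control cells (log2 fold change -1.12, adjusted p = 4.31e-04), and kept its call in every alternative run.

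**Figure D2:**
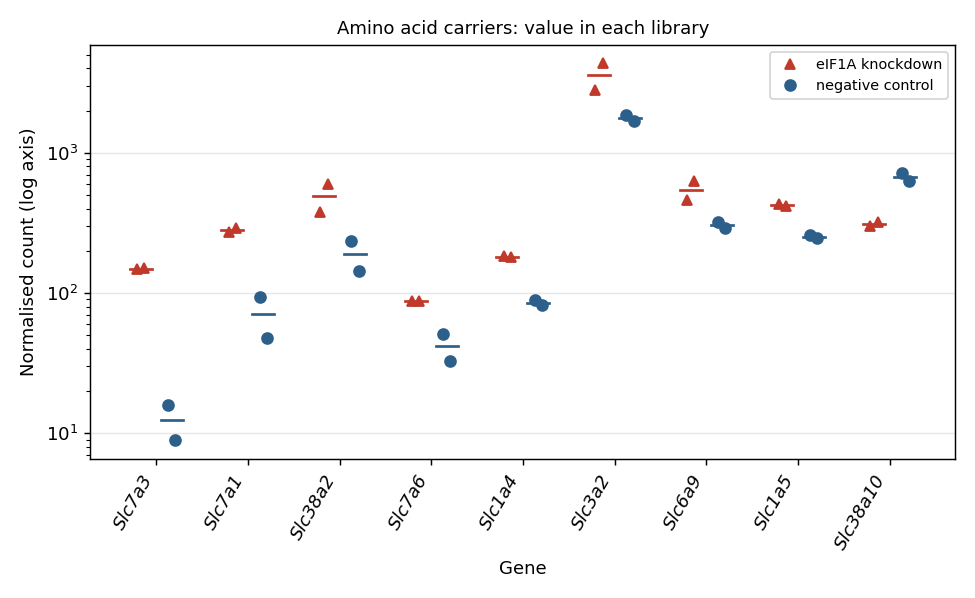
Normalised counts (log axis) of the 9 amino acid carriers in each of the 2 eIF1A knockdown libraries (triangles) and 2 control libraries (circles), with a line at each group mean. The knockdown libraries lie above the control libraries in 8 genes and below them in Slc38a10, and the gap is widest for Slc7a3 (148 and 151 against 15.7 and 8.93).

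The promoters of the class were searched for a motif of ATF4 because its members moved together. The motif TGATGNAA, the composite element bound by ATF4 with C/EBP proteins, was looked for on both strands from 250 bases before to 50 bases after each RefSeq transcript start (GRCm38.p6). Of the 83 members 66 had such a window. The motif was present in 2 of the 66 (3.03%), against 2.68% of the tested genes with a window and 4.51% of all 27025 genes with one. One of the 2 was Slc1a4, the only match among 7 amino acid carriers with a window, and the other was Slco2a1, which did not pass. The windows of Slc7a3 and Slc1a5 were not in the table used, and a window without these letters says nothing about more distant sites. The Slc1a4 stretch (chr11:20332704-20332963, minus strand) is shown because its match, TTGCATCA on the printed strand and in capitals here, spans the transcript start. The Slc3a2 stretch (chr19:8713898-8714147, minus strand) is shown beside it as an amino acid carrier that rose without that motif, and its capitals mark a match to ACGTG, the core of the hypoxia response element, on the opposite strand.
Slc1a4: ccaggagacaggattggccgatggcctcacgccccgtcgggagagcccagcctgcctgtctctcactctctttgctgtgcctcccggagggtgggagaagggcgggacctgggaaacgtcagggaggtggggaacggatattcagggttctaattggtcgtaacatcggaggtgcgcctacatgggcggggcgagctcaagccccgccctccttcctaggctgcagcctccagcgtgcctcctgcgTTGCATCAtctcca
Slc3a2: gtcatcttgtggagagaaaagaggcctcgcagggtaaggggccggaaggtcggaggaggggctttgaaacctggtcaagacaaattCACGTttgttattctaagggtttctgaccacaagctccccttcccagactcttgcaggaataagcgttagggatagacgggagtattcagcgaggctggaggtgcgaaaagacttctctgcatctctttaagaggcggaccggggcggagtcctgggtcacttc

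Among the sugar carriers, Slc2a1, the main glucose carrier of the fibroblast plasma membrane, was lower in knockdown cells. It had 245 and 281 normalised counts in knockdown libraries and 739 and 709 in control libraries, a log2 fold change of -1.46 ± 0.21 (SE) (adjusted p = 3.25e-05), and kept its call in every alternative run. Each group was narrow and the gap between them wide. Slc37a3, a member of the Slc37 family, had 33.9 and 44.2 in knockdown cells and 56.1 and 34.9 in control cells. Its log2 fold change was -0.19 (95% interval -0.95 to 0.57). Slc45a4 had 33.9 and 37.4 in knockdown cells and 50.2 and 35.7 in control cells, with a log2 fold change of -0.24 (adjusted p = 0.632), and 0.10 at equal library totals. The groups overlapped in both genes and neither passed. The Slc2a1 promoter (chr4:119108495-119108744, plus strand) is shown because it holds the ACGTG core, in capitals, before the transcript start.
Slc2a1: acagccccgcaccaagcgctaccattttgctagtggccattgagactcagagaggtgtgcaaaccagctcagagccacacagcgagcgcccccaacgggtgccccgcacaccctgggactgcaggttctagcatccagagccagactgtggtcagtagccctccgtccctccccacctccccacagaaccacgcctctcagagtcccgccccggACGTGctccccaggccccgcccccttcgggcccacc

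The ACGTG core was found in the windows of 26 of 66 members (39.4%), against 32.0% of tested genes with a window. It was in 4 of 14 members called higher (28.6%), 7 of 17 called lower (41.2%) and 13 of 28 not called (46.4%). The core is contained in CACGTG, which holds it on both strands and counts once for a window.

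The ion carriers mostly did not pass. Of 11 tested, 2 rose, 1 fell and 8 missed the threshold, where 37.5% of all genes passed. The median log2 fold change was -0.17, and became 0.18 at equal library totals and 0.16 with a trend on GC content removed. Slc20a1, a sodium-coupled phosphate carrier, had 64.6 and 107 normalised counts in knockdown cells and 31.5 and 26.0 in control cells (2.85-fold, adjusted p = 0.00217), and was 2.22-fold higher with adjusted p = 0.0811 without knockdown replicate 2. Slc9a8, a sodium/proton exchanger of Golgi and endosome membranes, had 107 and 112 in knockdown cells and 42.3 and 39.0 in control cells (2.66-fold, adjusted p = 0.00102). The Slc9a8 libraries agreed closely within each group.

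Slc4a2, a chloride/bicarbonate exchanger, was the ion carrier called lower, with 251 and 370.2 normalised counts in knockdown cells and 778 and 519 in control cells (2.08-fold lower, adjusted p = 0.00249). Once the GC trend was removed it was 1.40-fold lower and not called (adjusted p = 0.176), and without the mean-variance trend adjusted p was 0.0598. For the potassium/chloride cotransporters Slc12a4 and Slc12a7 the log2 fold changes were -0.34 (95% interval -0.80 to 0.13) and -0.34 (-0.93 to 0.26), and their relative Slc12a9 had -0.53 (called lower without control replicate 2, adjusted p = 0.0306). None of these passed with all libraries, and the intervals of Slc12a4 and Slc12a7 do not reach a 2-fold change either way. The magnesium carrier Slc41a2 and the sulfate carrier Slc26a2 had few reads and wide intervals. For Slc41a2 and Slc26a2 the ratios of knockdown to control reads, scaled to the libraries, were 2.90 (95% counting interval 1.13 to 8.79) and 0.439 (0.172 to 1.04), intervals that cover counting error only.

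The 3 beta subunits of the sodium pump, which the catalytic subunit needs to reach the plasma membrane, differed in outcome: Atp1b2 fell, and Atp1b1 and Atp1b3 did not pass. Atp1b2 (mm10 chromosome 11, 69599736 to 69605942, minus strand) had 37.9 and 16.3 normalised counts in knockdown cells and 464 and 279 in control cells. Its log2 fold change of -3.80 ± 0.35 (SE) (adjusted p = 1.26e-07) ranked 9 among the falls of all genes tested. The fold was 20.9 without knockdown replicate 1 and 9.27 without knockdown replicate 2. Atp1b1 had 54.9 and 73.4 in knockdown cells and 50.2 and 19.5 in control cells, and its estimate of 0.99 (95% interval 0.15 to 1.84) did not pass (adjusted p = 0.0594). Without control replicate 1 Atp1b1 was called higher (3.15-fold, adjusted p = 9.11e-04), and an exon of Nme7 lies on the opposite strand of its 3′ end, so its reads are uncertain to that extent. Atp1b3 had 246 and 226 in knockdown cells and 202 and 176 in control cells, an estimate of 0.32 (-0.17 to 0.81) that did not pass. At equal library totals Atp1b1 and Atp1b3 were both called higher. Differences between the subunits were not tested.

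Carriers of zinc, iron, copper and manganese had 2 of 9 tested members higher, 0 lower and 7 not passing, against 15.9% of all genes higher and 21.6% lower. Equal library totals gave 5 higher, where 28.2% of all genes were higher. With 1 library left out, the median log2 fold change of 0.78 ran from 0.41 (knockdown replicate 2) to 0.96 (control replicate 1). It was 0.46 with the GC trend removed and 1.13 at equal library totals. Slc39a6, a zinc importer of the plasma membrane, had 119 and 157 normalised counts in knockdown cells and 69.9 and 47.9 in control cells (2.34-fold, adjusted p = 0.00290, and 0.0528 without knockdown replicate 2). Slc11a2, the divalent metal carrier that brings iron into the cytosol, had 233 and 202 in knockdown cells and 116 and 111 in control cells (1.90-fold, adjusted p = 0.00556, and 0.0718 without knockdown replicate 1). The zinc and iron importer Slc39a14 and the zinc carrier Slc30a5 of the secretory pathway lay just short, at 0.78 and 0.83 with adjusted p = 0.0680 and 0.0743. Both were called higher at equal library totals and without control replicate 1 (0.0391 and 0.0188), and Slc39a14 also by edgeR (0.0473). The ER zinc exporter Slc39a7 had 1246 and 1207 in knockdown cells and 1117 and 924 in control cells and did not pass, but was called higher at equal library totals, under quantile normalisation and with the GC trend removed. The copper importer Slc31a1 had an estimate of 0.36 (-0.38 to 1.09), and the zinc carrier Slc30a4, with few reads, one of 0.97 (-0.56 to 2.51). Slc39a1, which has an annotated pseudogene, and Slc30a6 were the 2 tested members with negative estimates (-0.58 and -0.65), and Slc30a6 was called lower with the GC trend removed (0.0312).

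The Slc25 carriers, grouped as mitochondrial although Slc25a17 lies in peroxisomes, had 5 of 12 tested members lower, 1 higher and 6 not passing. Of all genes tested 21.6% were lower. The median log2 fold change was -0.34, and 0.01 at equal library totals, where 2 members were lower and 2 higher. As a summed level the class had 6605 and 6310.4 normalised counts in knockdown libraries and 9933 and 9962 in control libraries. Much of that difference lay in Slc25a39 (2079 and 1928 against 3822 and 2991) and Slc25a1 (487 and 486 against 1956 and 1950).

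Slc25a1, which exports citrate from mitochondria for fatty acid and sterol synthesis, was the member of the class that fell most. It had 487 and 486 normalised counts in knockdown cells and 1956 and 1950.2 in control cells, a 4.01-fold fall (limma, adjusted p = 5.10e-07). The 2 libraries of each group were nearly equal, and the call was kept in every alternative run, at 2.61-fold with the GC trend removed. Slc25a11, which exchanges 2-oxoglutarate for malate, had 676 and 545 in knockdown cells and 1209 and 1492 in control cells (2.21-fold lower, adjusted p = 4.06e-04). Slc25a17, a member of the family that lies in peroxisomes, had 38.7 and 38.0 in knockdown cells and 82.7 and 88.5 in control cells (2.20-fold lower, adjusted p = 0.00725, and 0.0626 at equal library totals). The Slc25a1 promoter (chr16:17928220-17928469, minus strand) is shown for the CACGTG it holds, in capitals, well before the transcript start.
Slc25a1: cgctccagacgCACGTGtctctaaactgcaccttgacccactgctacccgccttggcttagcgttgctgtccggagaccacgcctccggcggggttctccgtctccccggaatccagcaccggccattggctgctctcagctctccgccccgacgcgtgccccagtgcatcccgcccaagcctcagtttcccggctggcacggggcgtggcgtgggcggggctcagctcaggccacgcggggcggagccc

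The smaller falls of the Slc25 class depended more on the setting. Slc25a39, which brings glutathione into mitochondria, had 2079 and 1928 normalised counts in knockdown cells and 3822 and 2991 in control cells (1.69-fold lower, adjusted p = 0.0113), and after removal of the GC trend it was 1.06-fold lower (0.770). Its call was also lost at equal library totals (0.125), under quantile normalisation (0.136) and in limma without trend (0.0720). It was 1.49-fold lower without control replicate 1 and 1.63-fold lower without knockdown replicate 2. Slc25a12, a carrier of aspartate and glutamate in the malate-aspartate shuttle, was 1.67-fold lower and lost its call with control replicate 1 left out (0.283), with either knockdown replicate left out (0.0668 and 0.145), at equal library totals (0.250) and in DESeq2 (0.0637). Slc25a44, a carrier of branched-chain amino acids, was the member that rose (1.66-fold, adjusted p = 0.0427), a call lost with the replicate number as a block (0.0644), in DESeq2 (0.0534), without knockdown replicate 2 (0.389) and without control replicate 2 (0.174). The ADP/ATP carrier Slc25a4 had 2618 and 2551 in knockdown cells and 2057 and 2709 in control cells, with an interval of -0.33 to 0.59 on the log2 scale. The carnitine carrier Slc25a20 was at -0.64 and lay just short (adjusted p = 0.0652), and was called lower when control replicate 1 was left out or the GC trend was removed. Slc25a13, Slc25a22, Slc25a24 and Slc25a51, carriers of aspartate, glutamate, ATP and NAD, did not pass either, with estimates from -0.04 to 0.50.

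The Slc35 family, which supplies the ER and Golgi with nucleotides and nucleotide sugars, held a pair of close relatives that moved apart. Slc35b1, which brings ATP into the ER, had 270.4 and 239 normalised counts in knockdown cells and 56.1 and 85.2 in control cells (3.64-fold higher, adjusted p = 2.81e-05). Slc35b2, which brings the sulfate donor PAPS into the Golgi, had 722 and 720.0 in knockdown cells and 2093 and 2139 in control cells (2.93-fold lower, adjusted p = 1.15e-05). Both calls were kept in every alternative run, and Slc35b2 was 1.84-fold lower with the GC trend removed. Slc35e1 had 16.95 and 25.1 in knockdown cells and 50.2 and 44.6 in control cells (2.23-fold lower, adjusted p = 0.0250), a call lost without knockdown replicate 1 (0.193), without control replicate 1 (0.0804), at equal library totals (0.119), with DESeq2 (0.0663) and with the GC trend removed (0.0643). The other 4 tested members did not pass: Slc35c1, a GDP-fucose carrier, was at 0.41 (-0.10 to 0.91), and Slc35a4, Slc35e3 and Slc35f6 were at -0.33, 0.59 and 0.32.

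Among carriers of vitamins, nucleosides, lipids and other organic solutes, 2 of 8 tested members rose and 4 fell, against 15.9% and 21.6% of all genes. Those that rose carry vitamins. Slc23a2, a sodium-coupled ascorbate carrier, had 75.1 and 82.9 normalised counts in knockdown cells and 29.5 and 14.6 in control cells (3.66-fold, adjusted p = 7.52e-04). Slc19a2, a thiamine carrier, had 39.6 and 34.6 in knockdown cells and 13.8 and 9.74 in control cells (3.02-fold, adjusted p = 0.00832, and 0.0896 without knockdown replicate 1).

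Of the 3 Slc27 members, which handle fatty acids, 2 fell. Slc27a1, a fatty acid transport protein and acyl-CoA synthetase, had 16.1 and 41.4 normalised counts in knockdown cells and 198 and 104 in control cells (5.35-fold lower, adjusted p = 1.09e-04). Its fold was 3.40 without knockdown replicate 1 and 8.42 without knockdown replicate 2, and its knockdown libraries were well apart. Slc27a3 had 389 and 317 in knockdown cells and 794 and 834 in control cells (2.31-fold lower, adjusted p = 2.16e-04), but once the GC trend was removed it was 1.38-fold lower and not called (0.102). Slc27a4 did not pass, at -0.20 (-0.82 to 0.42). Slc44a2, a choline carrier, had 74.3 and 69.3 in knockdown cells and 224 and 213 in control cells (3.02-fold lower, adjusted p = 8.22e-05), and Slc27a1 and Slc44a2 kept their calls in every alternative run. Slc29a1, an equilibrative nucleoside carrier, was 1.62-fold lower (adjusted p = 0.0162), a call lost in 6 of the 17 alternatives, among them without knockdown replicate 1 (0.101) and without control replicate 1 (0.122). Slc6a8, the creatine carrier, was at 0.48 (adjusted p = 0.130) and was called higher at equal library totals, without control replicate 2 and with the GC trend removed. Slco2a1, a prostaglandin carrier and the 1 member of the organic anion class, had 57.3 and 49.6 in knockdown cells and 71.8 and 39.0 in control cells, with overlapping groups.

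ABC transporters had 2 of 7 tested members higher, against 15.9% of all genes, and 4 not passing. Abcb1b, a mouse P-glycoprotein that pumps drugs out of the cell (mm10 chromosome 5, 8798147 to 8866315, plus strand), had 89.6 and 109 normalised counts in knockdown cells and 13.8 and 4.06 in control cells. Its log2 fold change of 3.53 ± 0.47 (SE) (adjusted p = 1.08e-05) ranked 2 among the rises of all genes tested. Control replicate 2 had 5 reads and control replicate 1 had 14, and leaving out control replicate 1 gave a fold of 19.7, and leaving out control replicate 2 one of 6.75. Abcc5, an exporter of organic anions, rose 1.66-fold (adjusted p = 0.0301) and lost this call without knockdown replicate 1 (0.216), without knockdown replicate 2 (0.0745) and without control replicate 2 (0.0937).

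The peroxisomal carrier Abcd3 had 48.4 and 55.7 normalised counts in knockdown cells and 36.4 and 40.6 in control cells and did not pass, at 0.42 (-0.28 to 1.13). Abcc1, Abcb6 and Abcb10 were also short of the threshold, at 0.58, 0.46 and 0.56, and all 3 were called higher at equal library totals, Abcc1 also by edgeR (adjusted p = 0.0424). Predicted genes overlap the 3′ ends of Abcb6, on the same strand, and Abcb10, on the other. Of the Abcf genes, whose member Abcf1 acts in translation initiation, Abcf3 had 123 and 133 in knockdown cells and 214 and 215 in control cells (1.67-fold lower, adjusted p = 0.0208), a call lost without knockdown replicates 1 and 2 (0.126 and 0.0731). Abcf1 and Abcf2 were at 0.22 and 0.57 and did not pass, and were called higher at equal library totals, where Abcf3 was not called (0.238).

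The 3 adaptor genes that carry a carrier's name all passed, against 37.5% of all genes tested. Slc9a3r1 and Slc9a3r2 encode scaffold proteins that tether transporters to the cortical cytoskeleton. Slc9a3r1 had 318 and 329 normalised counts in knockdown cells and 1038 and 818 in control cells (2.84-fold lower, adjusted p = 2.49e-05). Slc9a3r2 had 296 and 314 in knockdown cells and 1015 and 706 in control cells (2.77-fold lower, adjusted p = 5.59e-05). Both were lower by less with the GC trend removed (1.89-fold and 1.59-fold) and kept their calls. Slc4a1ap had 107 and 124 in knockdown cells and 64.0 and 63.3 in control cells (log2 fold change 0.84, adjusted p = 0.0232, and 0.0664 and 0.194 without knockdown replicates 1 and 2).

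**Figure D3:**
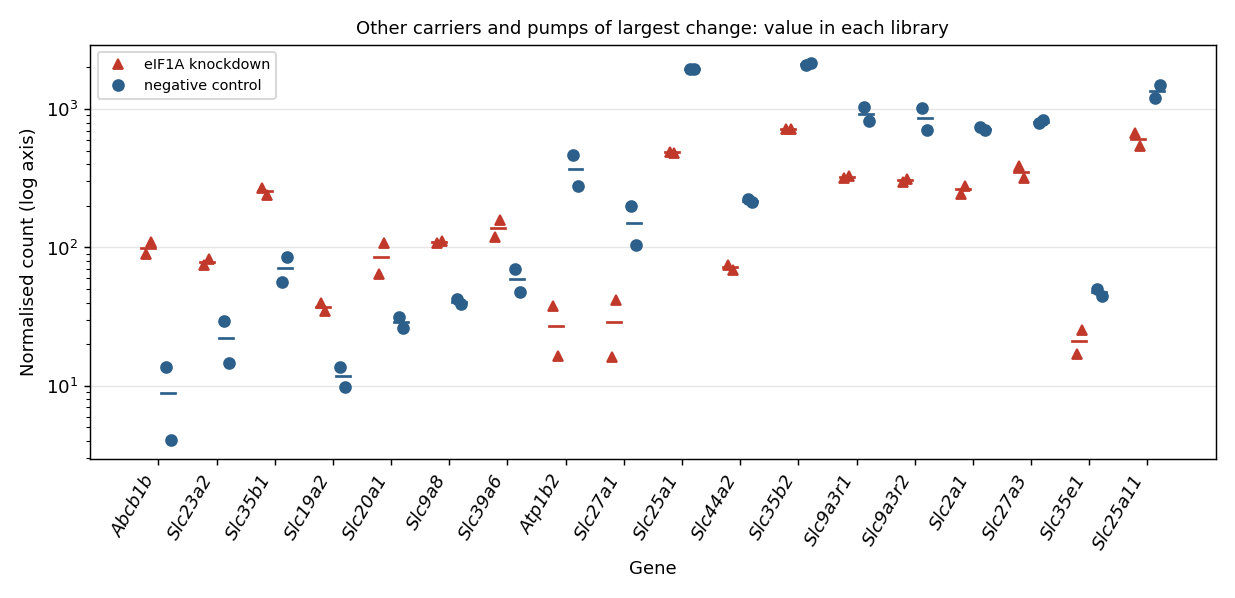
Normalised counts (log axis) of the 7 members of largest rise and 11 of largest fall outside the amino acid carriers, with a point for each of the 2 eIF1A knockdown libraries (triangles) and 2 control libraries (circles) and a line at each group mean. The genes were picked among called members whose groups do not overlap, so the groups are apart in all 18 by that choice. They run from Abcb1b (89.6 and 109 against 13.8 and 4.06) to Slc25a11 (676 and 545 against 1209 and 1492).

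The 7 members below the level needed for a test were Abca1, Abca5, Slc25a10, Slc30a7, Slc39a10, Slc4a7 and Slc5a3, each with 1 to 11 reads in a library. Their groups overlapped. The ratio of knockdown to control reads ran from 0.553 for Slc4a7 (95% counting interval 0.162 to 1.74) to 3.73 for Abca1 (0.772 to 35.5), and no interval left out 1. A difference was thus not detectable at this depth. The 3 tested members closest above the filter, Slc41a2, Slc26a2 and Slc30a4, had means of 5.12, 5.40 and 6.85 normalised counts, and the member closest below it, Slc25a10, had 4.84.

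Transcript GC content differed with the direction of change, among carriers as among all genes. Its median was 50.4% in the 19 members called higher, 56.9% in the 19 called lower and 51.7% in the 38 that did not pass. Over all genes tested it was 48.4% in those called higher and 55.5% in those called lower. With a smooth trend on GC content removed, 22 members rose and 15 fell by the same threshold, with a median log2 fold change of 0.18. The part of GC content in the calls was not tested beyond this.

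**Figure D4:**
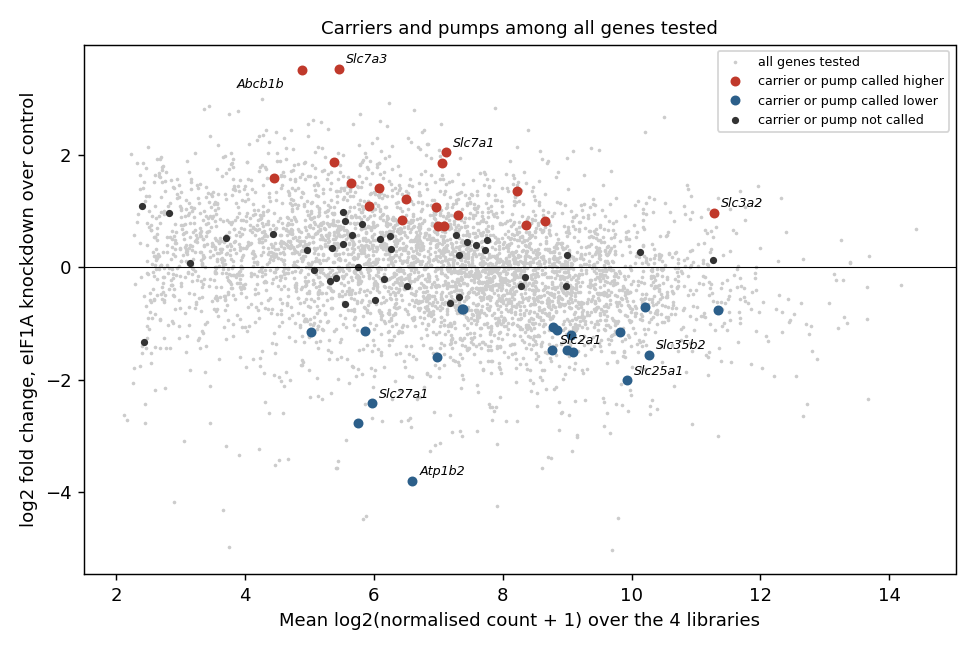
Log2 fold change (y axis, eIF1A knockdown over control) against mean log2(normalised count + 1) over the 4 libraries (x axis) for 4605 genes (grey) and the 76 tested carriers and pumps (coloured by call). Slc7a3 and Abcb1b lie at the top of all genes, at 3.54 and 3.53, and Atp1b2 lies near the bottom at -3.80.

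Transport proteins with other names were read from a list of channels, flippases, mitochondrial channels and accessory chains. Of 128 listed genes 57 were analysed and 56 tested, of which 8 were higher (14.3%) and 16 lower (28.6%), against 15.9% and 21.6% of all genes. The examples given here were picked after their values were seen. Bsg, the accessory chain that lactate carriers need to reach the plasma membrane, had 4303 and 4213 normalised counts in knockdown cells and 11572 and 12253 in control cells (2.80-fold lower, adjusted p = 7.42e-05). Aqp1, a water channel, had 96.1 and 137 in knockdown cells and 676 and 868 in control cells (6.64-fold lower, adjusted p = 8.24e-08). Lrrc8d, a subunit of volume-regulated anion channels that also pass small organic solutes, had 50.9 and 58.4 in knockdown cells and 10.8 and 12.99 in control cells (4.32-fold higher, adjusted p = 4.88e-04).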

How the data were processed

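The deposited signal is a table that its name calls normalised counts, made by the authors from bulk MARS-seq reads; the factors, the handling of molecular identifiers, the strand setting and the selection of genes were not stated. Tools listed in the submitters' processing notes were cutadapt 1.8.3, HTSeq, STAR, DESeq2 and bcl2fastq 2.17.1.14, with mm10 as build. Every value was a whole multiple of 1 step per library (100% within 0.01 read), which gave back the reads. No listed gene was at 0 in any library, so genes without reads could not be examined. Replicate libraries were not copies of each other: chi-square over its degrees of freedom was 13.7 between knockdowns and 16.5 between controls.

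The test was limma 3.58.1 (R 4.3.3, mean-variance trend) on log2(value + 1) across the 4605 genes whose mean reached 5, with Benjamini-Hochberg adjustment and a threshold of 0.05. Fold changes are on that scale, which understates changes of low genes. edgeR 4.0.16 (quasi-likelihood) and DESeq2 1.42.0 were run on the recovered reads, and the scripts were tested on simulated data. On those reads edgeR called 807 genes higher and 909 lower.

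Members, substrate classes and lists were chosen with earlier results of these data known, and the adaptor class was added once the gene names were seen. Called members with groups apart and a mean of 20 or more were ranked by fold change, the top 12 in each direction being due with values per library, and the 2 members of smallest p in each class were to be named; the other members are given to complete each class, apart from 4 that count in the totals and are not reported here. All 83 members matched GENCODE M21 (mm10). Within the last 1000 bases, exons of other genes lay on the same strand in 2 members (Abcb6 and Slc39a7) and on the opposite strand in 4 (Abcb10, Atp1b1 and Slc29a1 among them); whether counting used strand is not known. Promoter sequences are from RefSeq (GRCm38.p6). No label gives a batch, so batch and group cannot be told apart.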

Additional observations from a re-analysis of the deposited data

How the results depend on the processing

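The count of members called higher (19) was 32 at equal library totals, where the median moved from 0.29 to 0.64 on the log2 scale, and ran from 10 to 22 with 1 library left out (10 without knockdown replicate 2). The count called lower (19) ran from 15 to 20 and the median from 0.24 to 0.35 with 1 library left out; the cause was not tested. The other settings were TMM scaling, quantile normalisation, pseudocounts of 0.5 and 5, testing every gene, testing those with a mean over 20, limma without trend, edgeR, DESeq2, an adjusted p of 0.1, at least 1.5-fold and, added after the data were seen, a GC trend removed (genes with GC content, 4874 of 4878). In these settings both counts stayed within 1.5 times of 19. With the replicate number as a block, 18 were higher and 19 lower, the call of Slc25a44 being lost. Across genes, the deviations of same-numbered libraries had only a weak negative correlation (-0.129). With the control numbers crossed, 23 members were higher and 20 lower.

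Of the 38 called members, 19 kept their call in all 17 alternative fits, and for the others not every lost call is given by gene. In limma without trend 14 members were higher and 14 lower, against 501 and 655 of all 4605 genes. edgeR called all 38 in the same direction, and DESeq2 called 18 higher and 17 lower, without Slc25a12, Slc25a44 and Slc35e1. Among the 30 members compared one by one across settings, signs turned for 2 without a call: Slc45a4 was at 0.10 (adjusted p = 0.862) at equal library totals, and Slco2a1, at 0.01, was at -0.18 (0.725) under quantile normalisation and ran from -0.42 (0.406, without control replicate 2) to 0.44 with 1 library left out, at -0.09 (0.911) without knockdown replicate 1. Which scaling is nearest to the RNA content of the cells was not tested. Depth limited the 7 members that could not be tested.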
